A study of Rattus norvegicus with 3 samples.

Results

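A stretch of distal chromosome 6 of the rat, from 138.0 to 144.5 Mb in the build rn6, was described in round spermatids for the histone marks H3K9me3 and H3K4me3. Its members were all listed peaks that start in this interval, which came to 692 of the 49591 H3K9me3 peaks and 47 of the 7684 H3K4me3 peaks. The interval was chosen from the H3K9me3 list itself because peaks are crowded there. The density, width, score and spacing of its H3K9me3 peaks are therefore given as a description and support nothing.

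The study profiled chromatin of untreated round spermatids from the testis of Sprague-Dawley rats by chromatin immunoprecipitation and sequencing (ChIP-seq). It has 3 groups of 1 library each, precipitated with an antibody against H3K4me3 (ab12209), with an antibody against H3K9me3 (ab8898) or with no antibody. The labels give neither the number or age of the animals nor the purity of the cells, and the peak lists hold no expression markers to check the cell type. With 1 library per mark there is no replicate error, so no p-value was computed, and the intervals below cover only counting error, with peaks taken as independent of each other. The sequencing depth is unknown because the lists hold no read counts.

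Each list was named for its mark together with the word negative, and the library made with no antibody bears that word in its title. It was therefore assumed to be what both precipitates were compared with, although no label says so. If the lists instead held peaks called with precipitate and control exchanged, every value below would describe an excess of the control. Each peak carries a score given by the authors, from 30.0 upwards, which is used to rank and compare peaks only within 1 list. Where scores of both marks are printed side by side, they are not comparable with each other.

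H3K9me3 is the trimethylation of lysine 9 of histone H3, set by enzymes such as SETDB1 and SUV39H1 and read by HP1 proteins. It is typical of heterochromatin, of repeated sequence and of some clustered gene families. H3K4me3, on lysine 4 of the same histone, lies mostly around the start sites of active or poised genes. Round spermatids are haploid cells that have completed meiosis and still carry most of their histones, which protamines replace later.

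The distal part of rat chromosome 6 carries the immunoglobulin heavy chain locus, a family of variable (V) segments and constant (C) region genes that is rearranged and expressed in B lymphocytes. In the RefSeq gene table of the assembly GRCr8, all 146 V segment genes and 4 C region genes of the chromosome stand in 1 block of 182 genes. The C region genes come first, after the gene Tmem121, and the V segments follow up to the gene Zfp386. The block also holds 19 pseudogenes and 5 genes listed as protein-coding, among them Adam6, a member of the ADAM family of membrane proteins that is known from sperm. After the block come 48 genes up to the end of the chromosome, of which Zfp386, Vipr2 (a receptor for vasoactive intestinal peptide), Dync2i1, Esyt2, Ncapg2 (a subunit of condensin II) and Ptprn2 are the first with protein products and known names. The positions of that assembly were not carried over to rn6. No peak was assigned to a gene, and which peaks lie on V segments was not determined.

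H3K9me3 peaks filled the middle of the interval rather than the whole of it. In windows of 0.5 Mb, the first 4 windows, from 138.0 to 140.0 Mb, held 10, 3, 8 and 6 H3K9me3 peaks. The next 8 windows, from 140.0 to 144.0 Mb, held 77, 96, 88, 72, 147, 89, 63 and 33 peaks. The last window, from 144.0 to 144.5 Mb, held none. The dense stretch was thus 4 Mb long in whole windows and accounted for 665 of the 692 peaks, and the name of an H3K9me3 domain fits only this stretch.

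H3K4me3 peaks had another layout. The first 5 windows held 10, 4, 3, 6 and 15 H3K4me3 peaks, or 38 of the 47. The 7 windows from 140.5 to 144.0 Mb held 1, 2, 0, 1, 0, 1 and 1, and the last window held 3. The window from 140.0 to 140.5 Mb was the only 1 of the 13 that was rich in both marks, with 91.2 kb under H3K9me3 and 18.9 kb under H3K4me3.

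**Figure D1:**
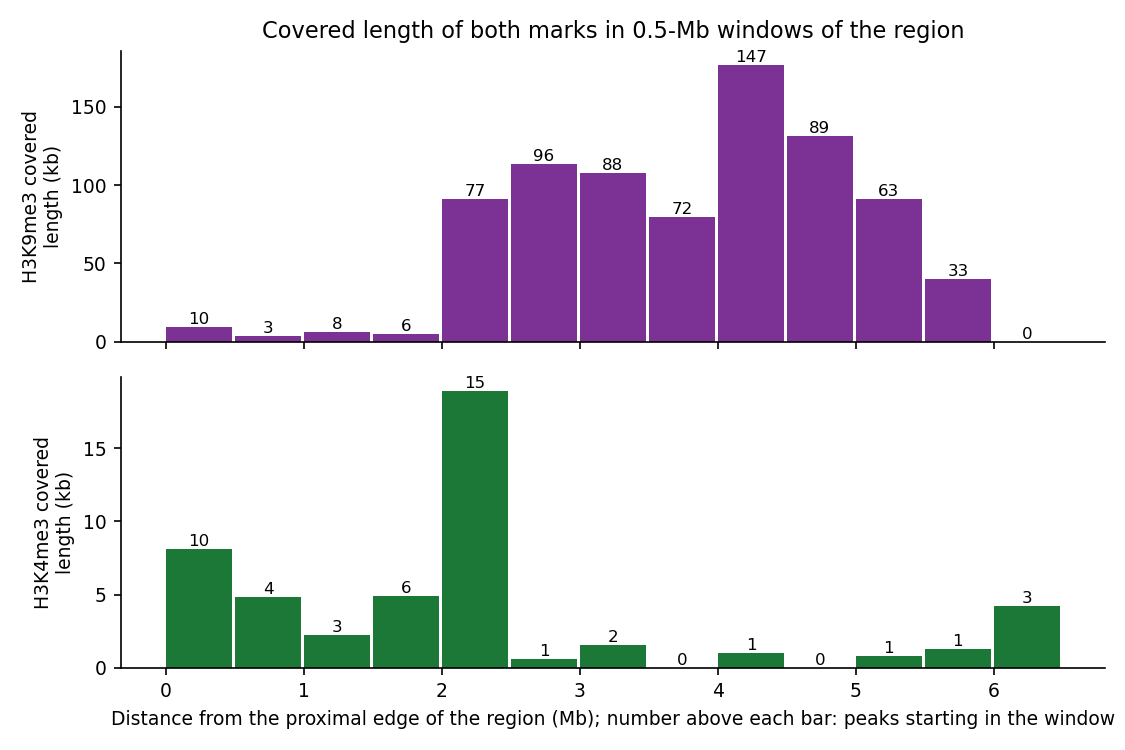
Length covered by H3K9me3 peaks (upper panel, kb) and by H3K4me3 peaks (lower panel, kb) in the 13 windows of 0.5 Mb, against the distance from the proximal edge of the region in Mb. The number above each bar counts the peaks that start in the window; H3K9me3 fills the bars between 2 and 6 Mb, with a maximum of 177 kb, and most H3K4me3 lies in the first 5 bars.

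The densest H3K9me3 window was 142.0 to 142.5 Mb, where peaks covered 177 kb or 35.4% of the sequence. It was followed by 142.5 to 143.0 Mb with 131 kb and 140.5 to 141.0 Mb with 113 kb. These windows ranked 3, 4 and 7 among the 296 windows of chromosome 6. The median window of the rest of the chromosome had 1.16 kb under H3K9me3, and 91 of its 283 windows had no H3K9me3 peak. The least dense windows of the region were 144.0 to 144.5 Mb with no peak, 138.5 to 139.0 Mb with 3.84 kb and 139.5 to 140.0 Mb with 5.30 kb. Their ranks by cover on the chromosome were 205, 77 and 60. The windows from 138.0 to 138.5 Mb and from 139.0 to 139.5 Mb, with 9.56 and 6.46 kb, ranked 40 and 52, so all 4 windows before the dense stretch lay above the median of the rest.

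In these windows the dense stretch began abruptly and its cover fell towards its distal end. From 1 window to the next, H3K9me3 cover went from 1.06% to 18.2% at 140.0 Mb, whereas it went from 35.4% over 26.2% and 18.3% to 8.02% between 142.0 and 144.0 Mb. The last of these windows reached beyond the last H3K9me3 peak, so its cover includes a sparse end. On the proximal side, a gap of 133 kb between 139859552 and 139992407 came before the first crowded peaks. On the distal side, the last H3K9me3 peak of the interval was at 143776964 to 143777694 with a score of 32.0, and the next began at 145000352, leaving 1.22 Mb with no H3K9me3 peak. That distance ranked 30 among the 2108 gaps of the chromosome. It held 5 H3K4me3 peaks. The 3 longest gaps inside the interval all lay before the dense stretch. They ran over 506 kb from 138560358, 392 kb from 139459531 and 336 kb from 138205959, and held 2, 1 and 2 whole H3K4me3 peaks. The longest gap within the dense stretch, a value looked up after the others were seen, measured 105 kb from 140913091 and held no H3K4me3 peak.

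The edges set by the rule fell outside the dense H3K9me3 stretch. The first H3K9me3 peak inside, at 138043141 to 138043777, had a score of 34.0, and the last one before it, at 137455404 to 137455938, had 32.2. The first H3K9me3 peak beyond the distal edge, at 145000352 to 145001332, had a score of 59.9. For H3K4me3 the outermost peaks inside had scores of 65.7 and 47.8, and the nearest outside had 61.1 and 32.0. The proximal edge was not sparse in H3K4me3. The window from 138.0 to 138.5 Mb held 10 H3K4me3 peaks and ranked 3 by their number among the 296 windows of the chromosome.

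Compared with the rest of chromosome 6, the interval held 32.8% of the H3K9me3 peaks of the chromosome on 4.40% of its length. The density was 106 H3K9me3 peaks per Mb (95% Poisson interval 98.7 to 115) against 10.03 (9.51 to 10.6) elsewhere, a ratio of 10.6 (9.68 to 11.6). Peaks covered 13.2% of the interval and 1.15% of the rest. The length of the chromosome was taken as its last peak end, 148 Mb.

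The interval was not the only H3K9me3 stretch of the chromosome. Of 148 windows of 1 Mb, 9 (6.08%) had over 5% of their sequence under H3K9me3, and 4 of these, from 140 to 144 Mb, lay in the region. The other 5 began at 15, 17, 18, 19 and 30 Mb. The 4 windows of the region held 166 H3K9me3 peaks per Mb (154 to 179) and the other 5 held 124 (114 to 134), whereas cover was closer, at 20.8% and 17.5%. The densest window of the chromosome, from 18 to 19 Mb, was covered to 36.5%, ahead of 30.8% between 142 and 143 Mb. The rest of the chromosome without its 5 dense windows had 5.86 peaks per Mb (5.46 to 6.28).

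Single H3K9me3 peaks of the region were close in width to those elsewhere on the chromosome. The median width was 963 bp (95% interval of the median 918 to 1023 bp), with quartiles of 731 and 1451 bp, against 862 bp (839 to 890 bp) in the rest. Against the 5 dense windows of the rest, where the median was 1054 bp (1009 to 1102 bp), the order turned. The widest peak of the region measured 10615 bp and the narrowest 389 bp. In the region 6 of 692 peaks were wider than 5 kb, and in the rest 6 of 1417, all 6 of them in the dense windows.

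By median score, the H3K9me3 peaks of the region lay between those of the dense windows of the rest and those of its other windows. The median was 57.9 (55.6 to 61.1) in the region and 51.1 (49.5 to 54.4) in the rest of the chromosome. It was 77.9 (67.9 to 84.0) in the 5 dense windows of the rest and 42.4 (40.9 to 44.8) outside them. With only those peaks whose score reached the list median, the difference of the region from the rest turned to -2.82. Its interval of -9.4 to 5.05, which takes the median of the rest as fixed, includes 0. The whole list had a median of 60.4, and 324 of the 692 peaks, or 46.8%, reached it (50% of the list by construction). In the rest of the chromosome 585 of 1417 peaks, or 41.3%, reached it. The highest 10% of the list by score took in 28 of the 692 peaks, or 4.05%. That share was 6.35% in the rest (90 of 1417 peaks), 13.1% in its dense windows (81 of 618) and 1.13% outside them (9 of 799). Width and score rose together across peaks, with Spearman's rho of 0.877 over the 692 peaks of the region and 0.819 over the 1417 of the rest. These are correlations across peaks of 1 library, given with no p.

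Neighbouring H3K9me3 peaks stood close together. The median gap was 1171 bp in the region, over 691 gaps, and 2925 bp in the rest, over 1415 gaps. Gaps of up to 1 kb made up 45.7% of the region's gaps and 32.7% of the others. Joined over gaps of up to 10 kb, the 692 peaks formed 86 runs with a median length of 10987 bp, and 19 peaks stood alone. The 1417 peaks of the rest formed 501 runs with a median of 1132 bp, and 287 stood alone. The longest runs of the region were 171 kb from 142376712 with 68 peaks, 160 kb from 142094233 with 57 peaks and 137 kb from 141257834 with 46 peaks. H3K9me3 covered 52.2%, 49.5% and 47.8% of these runs, and they held 0, 1 and 2 H3K4me3 peaks. The longest run of the rest measured 463 kb from 18217631.

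**Figure D2:**
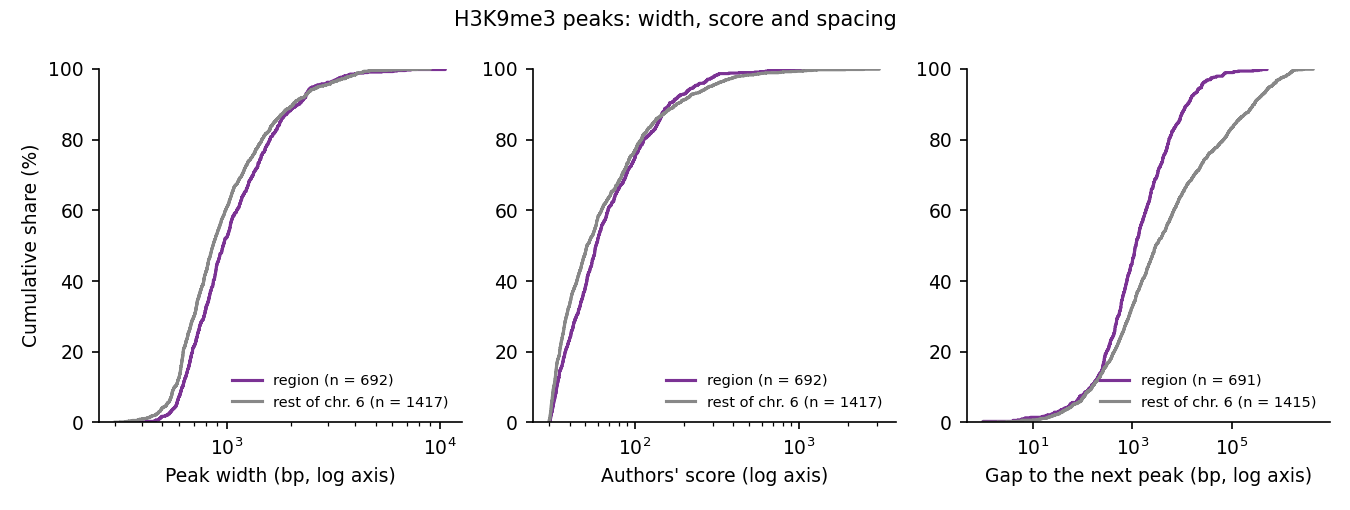
Cumulative share of H3K9me3 peaks (%) by width (bp), by score and by the gap to the next peak (bp), each on a log axis, for the region (purple) and the rest of chromosome 6 (grey). The medians of 963 and 862 bp in width and of 57.9 and 51.1 in score lie near each other, and the gaps, with medians of 1171 and 2925 bp, part furthest.

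The highest scores of the H3K9me3 list in the region were gathered near 143 Mb. The leading peak, at 142968782 to 142979396, had a score of 1232 and was also the widest. Its score ranked 418 in the list of 49591. The next were 744 at 143019314 to 143025597, 659 at 142958751 to 142965631 and 654 at 143028855 to 143033439. With the peaks at 142945273 (score 539) and 143015964 (score 434), 6 of the 10 highest lay within 88.2 kb, from 142945273 to 143033439. In that span 18 H3K9me3 peaks covered 58.6% of the sequence, and there was 1 H3K4me3 peak.

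The remaining 4 of the 10 stood apart from each other. They had scores of 629 at 143562178 to 143567508, 585 at 140837289 to 140844589, 375 at 142122687 to 142126002 and 327 at 141769179 to 141772749. The 5 widest peaks, from 6033 to 10615 bp, were all among the 10. Of the 10, only the peak at 143019314 met an H3K4me3 peak. Scores over 500 were reached by 7 of the 692 peaks of the region and by 24 of the 1417 peaks of the rest of the chromosome. The lowest of the 7, at 539, ranked 1547 in the list of 49591, so such scores were not particular to the region.

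H3K4me3 peaks were also more frequent in the interval than elsewhere on the chromosome. The 47 peaks gave 7.23 per Mb (5.31 to 9.62), against 345 peaks or 2.44 per Mb (2.19 to 2.71) in the rest, a ratio of 2.96 (2.14 to 4.03). The dense windows alone differed less, with 5.25 per Mb in the region (3.25 to 8.03) and 4 in those of the rest (2.44 to 6.18). The ratio was 1.31, and its interval, 0.677 to 2.55, includes equal densities. In the region 16 of the 21 peaks started between 140 and 141 Mb, and in the rest 17 of the 20 between 30 and 31 Mb. The ratio thus compares mainly 1 window with 1 other. The 47 peaks of the interval were unevenly placed, with groups of 11, 9 and 7 peaks within 38.5, 68.4 and 82.7 kb. The intervals take peaks as independent of each other, so with such groups they are likely too narrow. The 2 Mb before the dense H3K9me3 stretch held 23 peaks, or 11.5 per Mb (7.29 to 17.3), and the dense stretch held 21. These parts were outlined after the windows had been seen.

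The H3K4me3 peaks themselves were close in width to those of the rest, and their median score was slightly lower. Their median width was 881 bp (791 to 1024 bp), against 888 bp (853 to 963 bp) in the rest of the chromosome. The median score was 42.3 (35.5 to 51.8), against 46.0 (42.6 to 50.5), and these intervals overlap. The median of the H3K4me3 list was 49.5, which 17 of the 47 peaks reached (36.2%, against 50% of the list). In the rest of the chromosome 158 of 345 peaks, or 45.8%, reached it. Among the highest 10% of the list were 2 of the 47, or 4.26%, and 33 of the 345 of the rest, or 9.57%. The difference was not tested.

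The highest H3K4me3 score, 235, lay beyond the dense stretch, at 144122173 to 144123783. It was 344 kb from the nearest H3K9me3 peak and ranked 561 in the list of 7684. The peak next to it, at 144123814 to 144125184, had a score of 67.3, and another at 144155848 to 144157076 had 47.8. These were the only peaks of either mark between 144.0 and 144.5 Mb.

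The next scores, 214 at 140001221 to 140004261 and 169 at 140004265 to 140007263, belonged to neighbouring peaks at the proximal border of the dense H3K9me3 stretch. At 3041 and 2999 bp they were the widest H3K4me3 peaks of the region. With 114 at 140026270 to 140027715 and 99.9 at 140021665 to 140023424, they formed part of a group of 11 H3K4me3 peaks within 38.5 kb, from 139989171 to 140027715. A second group of 9 followed within 68.4 kb, from 140112042 to 140180442, but its highest score was 42.1. The 10 H3K9me3 peaks met by the span of the first group covered 11.3 kb of it. Groups were formed over gaps of up to 50 kb.

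Further out on the proximal side, the highest H3K4me3 scores were 94.05 at 138558888 to 138560777, 87.5 at 138046108 to 138047140, 86.2 at 139859005 to 139859528, 81.3 at 138557447 to 138558648 and 79.3 at 138818127 to 138819189. The first 4 of these lay on H3K9me3 peaks, and the last was 247 kb from any. A group of 7 weak H3K4me3 peaks within 82.7 kb, from 138153040 to 138235739, had scores of at most 39.6 and none of them met an H3K9me3 peak, although 7 H3K9me3 peaks lay within the same span.

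**Figure D3:**
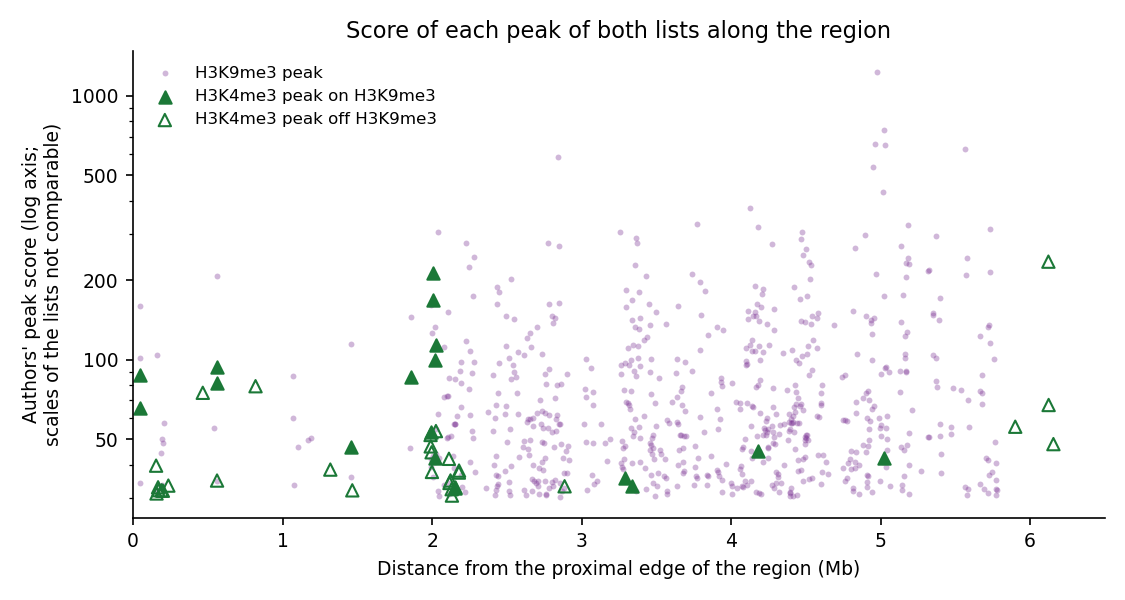
Score of each of the 692 H3K9me3 peaks (dots) and the 47 H3K4me3 peaks (triangles, filled where they overlap an H3K9me3 peak) against the distance from the proximal edge of the region in Mb. The score axis is logarithmic, and the scores of the lists are not comparable with each other; H3K4me3 scores of 214 and 169 stand at about 2 Mb and the highest, 235, after 6 Mb, where no dot is drawn.

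Overlap of the marks, by at least 1 bp, was found for 18 of the 47 H3K4me3 peaks of the region (38.3%, exact Clopper-Pearson interval 24.5 to 53.6%). In the rest of chromosome 6 it was 41 of 345 (11.9%, 8.66 to 15.8%), and over all chromosomes 31.9%. The interval in the region took in the share over all chromosomes. H3K9me3 covered 13.2% of the region and 1.15% of the rest, a difference that the rule itself fixed, so nothing is read from the higher share. In the 5 dense windows of the rest it was higher still, 18 of 20 (90.0%, 68.3 to 98.8%). Of these 20 peaks, 17 started in 1 window, from 30 to 31 Mb, so the share describes mainly that window.

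Seen from the other mark, the region did not stand out. Of its 692 H3K9me3 peaks 19 lay on H3K4me3 (2.75%, 1.66 to 4.25%), against 39 of 1417 (2.75%, 1.96 to 3.74%) in the rest of the chromosome and 4.44% over all chromosomes. Within the dense stretch it was 11 of 665 (1.65%, 0.829 to 2.94%), and in the 2 Mb before it 8 of 27 (29.6%, 13.8 to 50.2%).

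The 18 H3K4me3 peaks on H3K9me3 made 20 pairs with 19 H3K9me3 peaks, and 8 of them lay wholly inside an H3K9me3 peak. In the group of 11 at the proximal border, partners differed in size. The H3K4me3 peaks with scores of 214 and 169 met H3K9me3 peaks of 613 and 892 bp with scores of 35.8 and 43.2, which lay wholly within them. In the same group, the H3K4me3 peak at 140019016 to 140020082, with a score of 42.3, met an H3K9me3 peak of 2357 bp with a score of 133. Deeper in the dense stretch, the H3K4me3 peak at 142178313 to 142179336, with a score of 45.1, sat inside an H3K9me3 peak of 3756 bp with a score of 318. That at 143024337 to 143025159, with 42.4, sat inside the H3K9me3 peak of 6284 bp with a score of 744. The peaks at 141287690 to 141288550 and 141339643 to 141340354 had scores of 35.5 and 33.1 and sat inside H3K9me3 peaks with scores of 96.9 and 169.

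The 29 H3K4me3 peaks off H3K9me3 had a median score of 37.5 and those on it 59.5, with ranges of 30.5 to 235 and 32.7 to 214 that overlap widely. Of the 29, 21 lay within 10 kb of an H3K9me3 peak and 10 within 1 kb, with a median distance of 5.31 kb. Such distances were not computed for the rest of the chromosome. H3K9me3 peaks are crowded in the region by the rule, so nothing is read from this nearness. The 19 H3K9me3 peaks on H3K4me3 had a median score of 96.9 and the 673 others 57.8, again with overlapping ranges of 34.6 to 744 and 30.2 to 1232. Peaks on the other mark were also wider, with medians of 983.5 against 795 bp for H3K4me3 and 1126 against 959 bp for H3K9me3. Score rose with width, and the part of width in these differences was not tested.

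The windows dense in H3K9me3 differed in H3K4me3. Among the 9 windows of 1 Mb over 5% covered, that from 140 to 141 Mb held 16 H3K4me3 peaks and that from 30 to 31 Mb held 17. The other 7 held 0 to 2 each, among them 141 to 142, 142 to 143 and 143 to 144 Mb with 2, 1 and 2. Such low numbers were common on the chromosome, where 94 of 148 windows (63.5%) held 0 to 2. By number of H3K4me3 peaks, the window from 140 to 141 Mb ranked 3 of 148 on the chromosome, and that from 138 to 139 Mb, covered by H3K9me3 to 1.34% only, ranked 4 with 14 peaks. In the dense windows of the region 11 of 21 H3K4me3 peaks lay on H3K9me3 (52.4%, 29.8 to 74.3%). In those of the rest it was 18 of 20 (90.0%, 68.3 to 98.8%), and the difference was not tested. The window from 140 to 141 Mb held 16 of the 21, and that from 30 to 31 Mb held 17 of the 20.

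**Figure D4:**
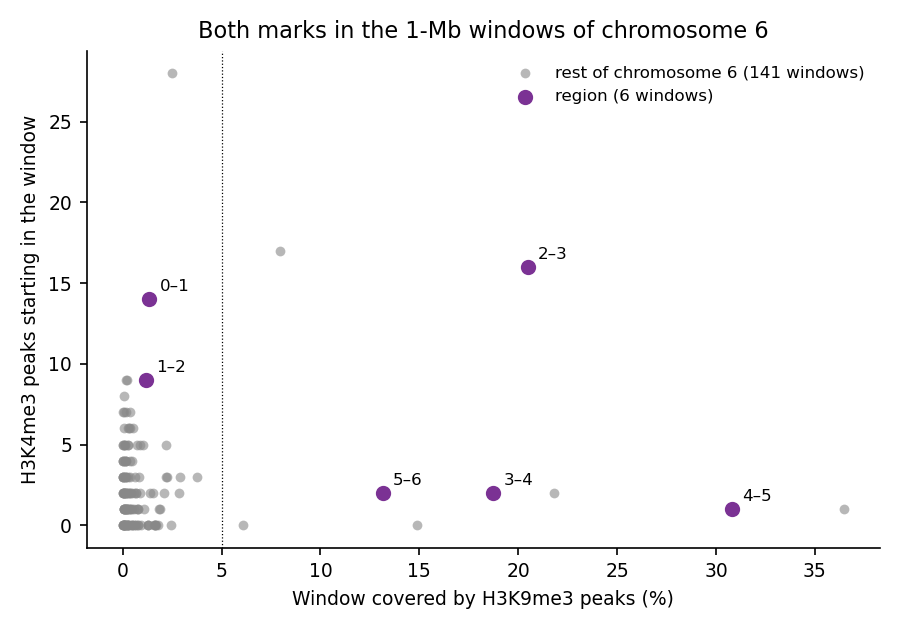
Each point is a window of 1 Mb on chromosome 6, placed by the share of its sequence under H3K9me3 peaks (%) and by the number of H3K4me3 peaks that start in it. The 6 whole windows of the region are purple and labelled by their distance from its proximal edge in Mb, the 141 windows of the rest are grey, and the dotted line marks 5%; the window 2–3 Mb from the edge, with 16 H3K4me3 peaks, stands apart from the 3 after it, with 2, 1 and 2.

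The assay reads places where precipitated fragments map, and the treatment of reads that match several places is not given in the sources used here. Its part in the peaks of this region was not tested, and neither was that of the shared control.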

How the data were processed

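Peak lists from ChIP-seq of round spermatids were analysed, 1 for each mark and each from 1 library. Bowtie 1.2, bcl2fastq, FastQC and the build rn6 are named per the submitters' processing notes, with no roles given. Peak names in the deposited lists are those of the caller MACS. Its version and settings, not given in the sources used here, were not assumed. The only value per peak is a score deposited by the authors, whose scale no header states. Positions are printed counted from 1.

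Members, windows and comparisons were chosen with earlier results of these data known. Peaks were assigned by start. No peak of a list overlapped another of its list. Windows were 0.5 and 1 Mb, and dense means over 5% covered by H3K9me3. Densities have exact Poisson intervals, shares exact Clopper-Pearson intervals, ratios the interval of the conditional binomial and medians order-statistic intervals, all at 95%. The interval of a difference of medians is that of the region's median, with the median of the rest taken as fixed. No test was run. The text names the 10 highest-scoring peaks of each mark, the 5 widest H3K9me3 peaks, 3 densest and 3 least dense 0.5-Mb windows, 3 longest gaps and the edge peaks. Alternatives were higher scores, shifted edges, another rest, stricter overlap, joined H3K9me3 peaks and, added after the data were seen, dense windows alone. The calculations were tested on simulated data. The tools were scipy 1.17.1, pandas 2.3.3, matplotlib 3.10.9 and numpy 2.4.6 under Python 3.11.15. Since an rn6 sequence was not used here, no sequence is printed.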

Additional observations from a re-analysis of the deposited data

How the results depend on the processing

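The H3K9me3 density ratio of the region over the rest, 10.6, was 12.04 with scores at or above the list median, 12.4 with edges 0.5 Mb further in, 9.14 with edges 0.5 Mb further out, 18.2 without the dense windows of the rest and 8.57 with peaks joined over 1 kb. The ratio of covered percentages, 11.5, was 13.4, 9.89 and 24.1 with edges in, edges out and without those windows. The difference in median width, 100.5 bp, was 51 bp with higher scores (interval -17 to 135 bp, which includes 0), 177.5 bp without the dense windows, 492.5 bp with joined peaks and -91.5 bp against the dense windows alone. The difference in median score, 6.82, was 15.5 without the dense windows, and turned to -2.82 with higher scores (-9.4 to 5.05, which includes 0) and to -19.9 against the dense windows alone, an alternative added after the data were seen. The median gap of 1171 bp was 2451 bp with higher scores (1862 to 3626 bp), where the rest had 3639 bp (2796 to 4657 bp) and the intervals overlap, and 3707 bp with joined peaks, where the rest had 11397 bp. With higher scores, 1.23% of the region's and 3.76% of the rest's H3K9me3 peaks lay on H3K4me3. Without its dense windows, 7.08% of the rest's H3K4me3 peaks lay on H3K9me3. The H3K4me3 density ratio stayed between 2.15 and 3.03, and the share of the region's H3K4me3 peaks on H3K9me3 between 29.4% and 52.4%, within the main interval of each. The values of 2.15 and 52.4% came from the region's dense windows alone, an alternative added after the data were seen. Joining was not run for H3K4me3 peaks. The gap of the rest without its dense windows was not run, since it would span removed windows. No paired analysis was possible because each group has 1 library and no test was run. Depth is unknown, so enrichment too weak to be called may be present where no peak is listed.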

Other observations

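Beyond the distal edge of the region, the last 3.34 Mb of chromosome 6 held 18 H3K9me3 peaks and 6 H3K4me3 peaks, and none of them met a peak of the other mark. Of the 18 H3K9me3 peaks, 13 started after 147.5 Mb, in the last window of the chromosome, and the highest score among the 18 was 102. The 6 H3K4me3 peaks had scores of at most 37.7. On the proximal side, the 2 Mb before the region held 2 H3K9me3 peaks and 4 H3K4me3 peaks, with highest scores of 79.0 and 135.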
